A study of Mus musculus with 2 samples.

Results

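Genes of the cytosolic protein-folding machinery, namely the heat-shock proteins, their co-chaperones and the chaperonin TRiC, were examined in Neuro2a cells depleted of CPEB1. The 40 genes were listed by name and function and not by their signals, though with earlier results of these data known. A probe set was used where the array annotation tied it to 1 of these symbols alone. Of the 40 genes, 37 had such a probe set and 35 had at least 1 that passed the filter on low signals, among 11554 genes measured in the same way. They were represented by 97 probe sets, of which 81 passed. In the annotation used, no probe set carried the symbol of Hsf1, Hsp90ab1 or Ptges3 alone, and the 2 probe sets that list Ptges3 beside another symbol were not used. Hspa1a and Hspa1b had probe sets, but none passed the filter.

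CPEB1 is an RNA-binding protein that recognizes the cytoplasmic polyadenylation element of target mRNAs and regulates their poly(A) tails and translation. The siCPEB1-transfected cells received Stealth siRNA against the Cpeb1 coding region and the siControl-transfected cells control siRNA, each for 24 h with Lipofectamine RNAiMAX, and 100 ng of total RNA per condition was hybridized to 1 Affymetrix mouse array. Neuro2a is a mouse neuroblastoma line with many features of sympathetic neurons, so that a single line and 1 array per condition limit what the comparison covers. Cells that also received siFMR1, or siFMR1 alone, were not analysed here.

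Chaperones bind proteins that are not yet folded or have lost their fold. HSP70 proteins work in cycles of ATP hydrolysis that J-domain proteins start and that HSP110 and BAG proteins end by nucleotide exchange, HSP90 acts later on kinases and steroid receptors together with co-chaperones, small heat-shock proteins hold unfolded clients without ATP, and TRiC is a double ring that folds tubulin and actin. Under heat or other proteotoxic stress, the heat shock factor HSF1 binds heat shock elements, inverted repeats of the unit GAA, and induces a subset of these genes, whereas TRiC subunits and many HSP90 co-chaperones are abundant without stress.

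Each probe set has 1 MAS5 signal per array, an intensity on a linear scale, and the comparison is the log2 ratio of siCPEB1 over siControl. To pass, a probe set needed a signal at or above the array median on at least 1 array and the 25th percentile on the other, and 1 representative probe set per gene was used for counts of genes. Over 45101 probe sets, the siCPEB1 array had a median of 21.6 and a 75th percentile of 159, and the siControl array had 21.05 and 154. Cpeb1 had a signal of 38.5 in siCPEB1 and 302 in siControl, 7.86-fold lower in siCPEB1. Of 11 markers of sympathetic neuroblasts, 9 passed the filter with a summed signal of 12760 in siCPEB1 and 9534 in siControl, and their median log2 ratio was 1.02. Of these 9, 8 had a ratio above 0, where 46.2% of all genes had one below 0. Of the 9 markers, 6 were higher by more than 1.5-fold, where 13.4% of all genes were, and 5 by more than 2-fold, where 4.99% were. The median of the 9 markers lay above that of every chaperone role. The part of this marker difference in the ratios of the chaperones was not tested. Few markers of other cells passed (1 of 5 for fibroblasts, 2 of 4 for haematopoietic cells, 1 of 3 for endothelium and 1 of 4 for glia), with summed signals of 39.8 to 66.0 in siCPEB1 and 23.0 to 49.1 in siControl. For the 18 hybridization controls the log2 ratio averaged -0.13 (SD 0.08). For the 24 passing poly-A controls it averaged -0.18 (SD 0.18), from -0.59 to 0.13. Passing probe sets of the same gene differed by a pooled SD of 0.37. Neither condition has a replicate, so every ratio describes these 2 arrays, no p-value is given, and variation among cultures was not measured.

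The 35 measured genes differed little as a whole. Their median log2 ratio was 0.08, against 0.05 over all genes, and 32 of them lay within 1.5-fold of equal signals. Of the 35 genes, 14 had a ratio below 0, where 46.2% of all genes did. Only Bag3 was higher in siCPEB1 by more than 2-fold, as were 4.99% of all genes, and none was lower by more than 2-fold, where 3.49% of all genes were. At 1.5-fold, Bag3, Cryab and Dnajb4 were higher, which is 3 of 35 genes against 13.4% of all genes, and none was lower, against 10.8% of all genes. All 35 genes also reached the array median on both arrays, so none of these ratios rests on a signal below it. In RNA from a whole culture, a change in the share of cells that express a gene and a change in its RNA per cell cannot be told apart.

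Counted over probe sets, 15 of the 81 were higher by more than 1.5-fold, where 12.9% of all passing probe sets were, and 4 were lower, where 12.1% were. The 15 came from 9 genes, and 12 of them belonged to genes listed below as induced by heat. Some of the 15 reached the array median only in siCPEB1, where they were brighter. With the median required on both arrays, 13 member probe sets were higher and 3 lower by more than 1.5-fold. Among 23 genes with 2 or more passing probe sets, 14 had all ratios above 0, 4 had all below 0 and 5 had both signs. The ratios of 1 gene therefore spread widely in places, with a pooled SD of 0.47 over the probe sets of these genes, and 9 genes passed 1.5-fold only at a probe set other than the representative one.

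**Figure D1:**
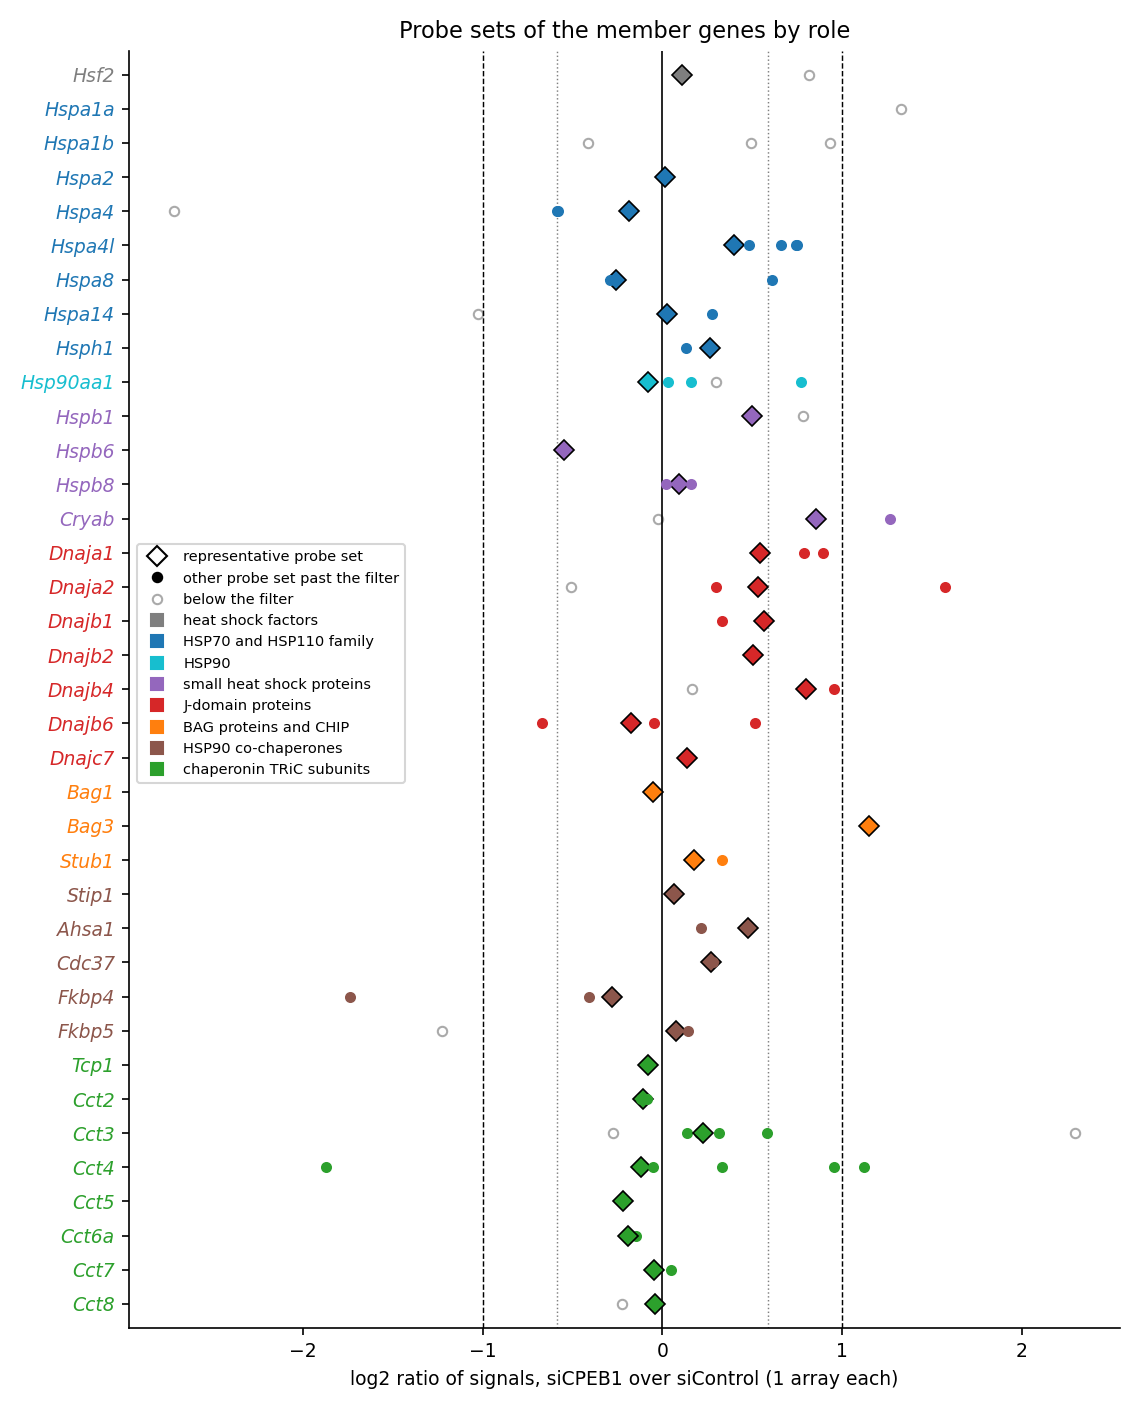
Each point is a probe set, with its log2 ratio of siCPEB1 over siControl (1 array each) on the x axis and its gene on the y axis, ordered and coloured by role. Diamonds are representative probe sets, filled circles others past the filter and open circles those below it, with dotted lines at 1.5-fold and dashed lines at 2-fold. The J-domain proteins lie mostly to the right, with 6 of 7 diamonds above 0, and the TRiC subunits close to 0, with 7 of 8 below it.

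Of the regulators, only Hsf2, a paralogue of HSF1 that can act with it, was measured. Its signal was 111 in siCPEB1 and 103 in siControl, a log2 ratio of 0.11, and its other probe set was below the filter at 10.0 in siCPEB1 and 5.71 in siControl. The level of Hsf2 thus differed by less than the spread between probe sets of 1 gene. Hsf1, the principal heat-responsive factor, could not be read.

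Of the 40 genes, 12 were listed as induced by heat in mammalian cells (Hspa1a, Hspa1b, Hspa8, Hsph1, Hspa4l, Hsp90aa1, Hspb1, Cryab, Dnaja1, Dnajb1, Dnajb4 and Bag3), and 10 of them were measured. Their median log2 ratio was 0.52, with 8 of 10 above 0, 3 higher by more than 1.5-fold (13.4% of all genes were) and none lower by as much. The other 25 measured genes had a median of 0.02, with 13 above 0, 12 below 0 and none past 1.5-fold. At the level of probe sets, 22 of 26 passing probe sets of the heat-inducible genes had a ratio above 0 and 12 were higher by more than 1.5-fold, where 12.9% of all passing probe sets were. Several of the 12 belong to the same gene, so they are not independent. They include a dim probe set of Hsp90aa1, with 22.4 in siCPEB1 and 13.1 in siControl, which reached the array median only in siCPEB1. Of the 55 passing probe sets of the other members, 3 were higher and 4 lower by more than 1.5-fold. The subset was drawn by function with earlier results of these arrays known, so its counts are a description. The list may not be complete, and the other 25 genes may hold heat-inducible ones too. The medians of 0.52 and 0.02 therefore depend on which genes were listed.

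The promoters of these genes were searched for the heat shock element, since HSF1 acts through it. RefSeq windows of GRCm38.p6, from 250 bases before to 50 after an annotated start, were given for 34 of the 40 genes. The pattern was a pair of inverted units, GAANNTTC or TTCNNGAA, which reads the same on both strands, and the longer pattern of 3 units was GAANNTTCNNGAA or TTCNNGAANNTTC, which contains the shorter one. A pair was found for 16 of the 34 genes (47.1%), against 17% of 27025 genes and 15.1% of 32851 windows. Of the heat-inducible genes with a window, 7 of 9 (77.8%) held one, and Dnajb1 and Hspa4l did not. The longer pattern was found for Hsph1 and Dnajb6 (5.88% of 34 genes), against 0.662% of all genes and 0.603% of windows. A match is a run of letters and not a measured binding site, and a window without one says only that the letters are not in it.

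The windows below show the matches, in capitals, for the inducible HSP70 genes and the heat-inducible genes with the clearest ratios, for both genes with the longer pattern, and for Hspb6 and Fkbp4, which held a match and had lower signals in siCPEB1. All are written 5′ to 3′ on the strand of the gene.
Hspa1a (chr17:34972242-34972271, minus strand): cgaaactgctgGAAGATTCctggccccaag
Hspa1b (chr17:34959324-34959353, minus strand): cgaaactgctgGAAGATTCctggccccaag
Bag3 (chr7:128523603-128523632, plus strand): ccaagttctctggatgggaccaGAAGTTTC
Dnajb4 (chr3:152193841-152193870, minus strand): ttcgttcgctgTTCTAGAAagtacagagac
Dnaja1 (chr4:40722333-40722362, plus strand): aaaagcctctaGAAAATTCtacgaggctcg
Hsph1 (chr5:149636279-149636308, minus strand): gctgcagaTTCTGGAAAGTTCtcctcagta
Dnajb6 (chr5:29735844-29735873, plus strand): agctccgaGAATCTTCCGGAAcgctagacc
Hspb6 (chr7:30553170-30553199, plus strand): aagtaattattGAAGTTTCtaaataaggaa
Fkbp4 (chr6:128438789-128438818, minus strand): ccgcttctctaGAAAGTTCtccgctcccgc

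The 2 genes most strictly dependent on stress stayed dim on both arrays. Hspa1a and Hspa1b encode the inducible HSP70, and lie close together on chromosome 17, at 34969359 to 34972156 and at 34956429 to 34959238. Hspa1a had a signal of 12.1 in siCPEB1 (percentile 39.1 of the array) and 4.82 in siControl (percentile 24.3). The 3 probe sets of Hspa1b had signals of 20.8, 17.8 and 8.62 in siCPEB1, and of 10.9, 12.6 and 11.5 in siControl at the same probe sets. All of these signals lay below the array medians, so their order between the arrays is not read and no fold is given. These genes are near-identical copies, so it is uncertain which of them each probe set reads.

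Bag3 had the largest representative ratio among the 35 genes. It encodes the BAG-domain nucleotide exchange factor that links HSP70 and small heat-shock proteins to selective autophagy, and lies on chromosome 7 from 128523583 to 128546981 of GRCm38.p6. At its single probe set the signal was 1465 in siCPEB1 and 660 in siControl, 2.22-fold higher in siCPEB1 (log2 ratio 1.15). The signal of Bag3 on the siCPEB1 array was thus far above the array median, and its ratio lay at the 96.3rd percentile of all genes. The printed match of Bag3 is the last run of letters in its window, downstream of the start. The other BAG protein measured, Bag1, an exchange factor that couples HSP70 to the proteasome, had 838 in siCPEB1 and 869 in siControl (log2 ratio -0.05), so the 2 BAG genes differed in their ratios.

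Cryab, which encodes the small heat-shock protein alpha-B-crystallin, was higher at both passing probe sets. It had signals of 558 and 199 in siCPEB1, against 308 and 82.8 in siControl, which is 1.81- and 2.40-fold higher (log2 ratios 0.86 and 1.26). Its remaining probe set was at 6.05 in siCPEB1 and 6.14 in siControl, below the filter. Hspb1, known as HSP25 or HSP27, had 29.9 in siCPEB1 and 21.2 in siControl, a log2 ratio of 0.50 at a signal only just above the array median. Its second probe set was below the filter, with 3.59 in siCPEB1 and 2.09 in siControl.

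The other small heat-shock proteins were not higher by as much. Hspb8, the partner of BAG3, had 1916 in siCPEB1 and 1797 in siControl (log2 ratio 0.09), and its other 2 probe sets had log2 ratios of 0.16 and 0.02. Hspb6, or HSP20, a muscle-enriched member, was lower in siCPEB1 with 169 against 246 in siControl (log2 ratio -0.54), the lowest representative ratio of the 35 genes and still within 1.5-fold. So Bag3 and Hspb8, whose products act in 1 complex, had ratios of 2.22-fold and 1.07-fold.

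**Figure D2:**
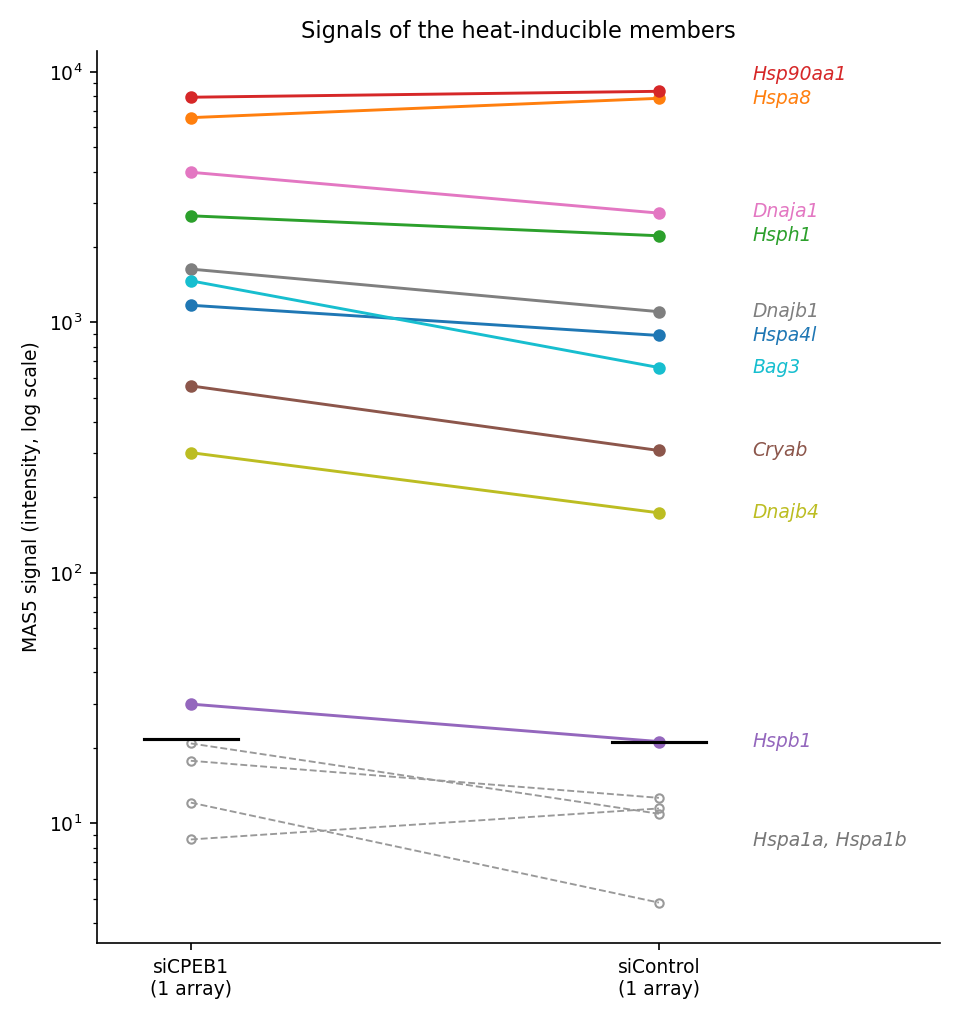
Lines join the MAS5 signal of each heat-inducible gene on the siCPEB1 array (left) and the siControl array (right), on a log scale, with 1 representative probe set per gene. Grey dashed lines are the 4 probe sets of Hspa1a and Hspa1b, and black bars mark the array medians of 21.6 in siCPEB1 and 21.05 in siControl. Bag3, at 1465 in siCPEB1 and 660 in siControl, has the steepest solid line, and Hspa8 and Hsp90aa1 at the top slope the other way.

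The J-domain proteins, which deliver clients to HSP70 and start its ATP hydrolysis, had the highest median of the 8 roles. Their median log2 ratio was 0.53 over 7 genes, 6 of them above 0, and 13 of 16 passing probe sets were above 0. Of 14 J-domain proteins outside the 40 genes, many with specialised roles in endocytosis or splicing, 7 had a ratio above 0 and 7 below, with a median of -0.09. The 7 member genes, which include Dnajc7, thus had a higher median than these 14, among which Dnaja4 (0.60) and Dnajb5 (0.20) were also above 0.

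Dnajb4, on chromosome 3 from 152181580 to 152210432, had the highest ratio of the 7. Its signals were 302 and 135 in siCPEB1, against 174 and 69.7 in siControl, or 1.74- and 1.93-fold higher. A probe set below the filter had 17.6 in siCPEB1 and 15.7 in siControl. Dnaja1, a major partner of HSC70, was higher at each of 3 probe sets, with 3974, 1903 and 2107 in siCPEB1, against 2730.0, 1101 and 1134 in siControl (log2 ratios 0.54, 0.79 and 0.89). Only the first of these, the brightest, lay within 1.5-fold. Dnajb1, the classical heat-inducible HSP40, had 1632 and 1198 in siCPEB1, against 1103 and 954 in siControl (log2 ratios 0.57 and 0.33).

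Dnaja2, another class A J-domain protein, was also higher at every passing probe set, but by very different amounts. Its signals were 1724, 448 and 5020.3 in siCPEB1, against 1193, 150.5 and 4082 in siControl. The fold was 1.45 at the representative probe set, 2.97 at the next and 1.23 at the brightest, which is marked as able to bind other transcripts. The one below the filter had 12.1 in siCPEB1 and 17.2 in siControl. Dnajb2, a neuron-enriched J-protein that binds ubiquitinated clients, had 309 in siCPEB1 and 219 in siControl at its single probe set (log2 ratio 0.50). Dnaja1, Dnaja2, Dnajb1 and Dnajb2 thus fell into a narrow band of representative ratios, at the 83.3rd to 85.9th percentile of all genes.

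The last 2 J-domain genes lay near equality. Dnajc7, which carries TPR repeats that bind HSP70 and HSP90, had 1559 in siCPEB1 and 1420.0 in siControl (log2 ratio 0.13). Dnajb6, a suppressor of polyglutamine aggregation and a holder of the longer promoter pattern, had both signs among its 4 probe sets. Its signals were 1736, 452, 359 and 25.5 in siCPEB1, against 1961, 316, 371 and 40.6 in siControl, with log2 ratios of -0.18, 0.52, -0.05 and -0.67. The gene gives several transcripts, and which of them each probe set reads was not tested.

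In the HSP70 and HSP110 family, 6 of 8 genes were measured, with a median of 0.02. The HSP110 exchange factors split. Hspa4l was higher at all 5 probe sets, with signals of 1170.3, 851, 309, 294 and 273 in siCPEB1, against 886, 508, 196, 211 and 162 in siControl, and with log2 ratios between 0.40 and 0.75. Hsph1, or HSP105, was higher by less, with 2663 and 2436 in siCPEB1, against 2217 and 2227 in siControl (log2 ratios 0.26 and 0.13).

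The remaining HSP110 gene, Hspa4, ran the other way. Its signals were 2439.7, 920.1 and 439 in siCPEB1, against 2773, 1378 and 658 in siControl, with log2 ratios of -0.18, -0.58 and -0.59. A probe set below the filter had 3.61 in siCPEB1 and 23.7 in siControl. The close paralogues Hspa4 and Hspa4l therefore had opposite signs at every passing probe set, 3 for Hspa4 and 5 for Hspa4l.

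Hspa8, which encodes the constitutive HSC70 that forms most of the HSP70 pool, was among the brightest genes and slightly lower. It had 6566.5, 6346 and 8905 in siCPEB1, against 7843, 7779 and 10693 in siControl (log2 ratios -0.26, -0.29 and -0.26), and 2 of these 3 probe sets are marked as able to bind other transcripts. A much dimmer probe set went the opposite way, with 87.3 in siCPEB1 and 57.1 in siControl (log2 ratio 0.61). Hspa2, a form enriched in testis, had 179 in siCPEB1 and 177 in siControl (log2 ratio 0.02), and Hspa14, a ribosome-associated form, had 1081 and 478 in siCPEB1, against 1061 and 395 in siControl (log2 ratios 0.03 and 0.28). A probe set of Hspa14 below the filter had 4.76 in siCPEB1 and 9.69 in siControl.

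Hsp90aa1, the stress-inducible HSP90, was near equality at its bright probe sets. The 3 brightest had 7922, 6616 and 6156 in siCPEB1, against 8365, 5935 and 6024 in siControl, with log2 ratios of -0.08, 0.16 and 0.03. A dim one had 22.4 in siCPEB1 and 13.1 in siControl, at least 1.06-fold higher once the dim siControl value was raised to the array median, and another, below the filter, had 14.9 in siCPEB1 and 12.1 in siControl. Its abundant relatives in other compartments are counted with the related lists.

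Among the HSP90 co-chaperones, 5 of 6 genes were measured, with a median of 0.08. Ahsa1, the activator of the HSP90 ATPase, had the highest ratio, with 2465 and 48.3 in siCPEB1, against 1773 and 41.6 in siControl (log2 ratios 0.48 and 0.21). Cdc37, which brings kinases to HSP90, had 1201 and 63.7 in siCPEB1, against 994 and 52.4 in siControl (log2 ratios 0.27 and 0.28). Both probe sets of each of these genes were above 0. Stip1, or HOP, the adaptor between HSP70 and HSP90, had 2085 in siCPEB1 and 1995 in siControl (log2 ratio 0.06). Stub1 encodes CHIP, the ubiquitin ligase that binds both chaperones, and had 1360 and 646 in siCPEB1, against 1206 and 514 in siControl (log2 ratios 0.17 and 0.33).

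The immunophilins Fkbp4 and Fkbp5, which act in opposition on steroid receptors bound to HSP90, differed in sign. Fkbp4 had 1290, 31.4 and 9.55 in siCPEB1, against 1564, 41.7 and 31.9 in siControl, with log2 ratios of -0.28, -0.41 and -1.74. The last of these is at least 1.47-fold lower once the dim siCPEB1 value was raised to the array median, so the large ratio rests on a signal below that median. Fkbp5, a target of the glucocorticoid receptor, had 690.3 and 219 in siCPEB1, against 654 and 199 in siControl (log2 ratios 0.08 and 0.14), and 3.86 in siCPEB1 and 9.01 in siControl at a probe set below the filter.

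The 8 subunits of TRiC lay close together. Their log2 ratios had an SD of 0.14, against 0.37 over the 35 genes and 0.60 over all genes, and a median of -0.09, with 7 of 8 below 0. Both of the wider sets include much dimmer genes. No SD was computed over other genes as bright, so the narrow spread is not shown to be particular to TRiC. Tcp1 had 4941 in siCPEB1 and 5221 in siControl, and Cct5 the lowest ratio with 4792 in siCPEB1 and 5570 in siControl (log2 ratio -0.22). Cct2, Cct4, Cct6a, Cct7 and Cct8 had representative log2 ratios between -0.19 and -0.04. Cct3 was the exception, with 4759 in siCPEB1 and 4065 in siControl (log2 ratio 0.23), and with all 5 passing probe sets above 0, the highest at 0.58.

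These subunits are among the brightest genes of the arrays, and the bright genes as a group were slightly lower in siCPEB1. Of 190 other genes as bright as the dimmest TRiC subunit or brighter, 139 (73.2%) had a ratio below 0, with a median of -0.12. Under loess, which takes out the trend of the ratio with signal, the TRiC median was 0.01, and under quantile normalization it was 0.03, so its sign depended on the scaling. The TRiC median was thus no lower than that of other genes of the same brightness.

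Cct4 had the widest range of ratios among its own probe sets of the 8 subunits. Its 3 brightest had 6347, 4728 and 3048 in siCPEB1, against 6923, 5134 and 3163 in siControl. The 4 dimmer ones had 244, 109.5, 26.3 and 22.7 in siCPEB1, against 194, 56.6, 96.2 and 10.4 in siControl, with log2 ratios of 0.33, 0.95, -1.87 and 1.12, of which the last has a siControl signal below the array median. These 4 ratios thus had both signs, and 2 of the 4 probe sets are marked as able to bind other transcripts. Cct7 had log2 ratios of -0.05 and 0.05. Below the filter, Cct3 had 15.3 and 15.96 in siCPEB1, against 3.12 and 19.3 in siControl, and Cct8 had 5.25 in siCPEB1 and 6.13 in siControl.

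**Figure D3:**
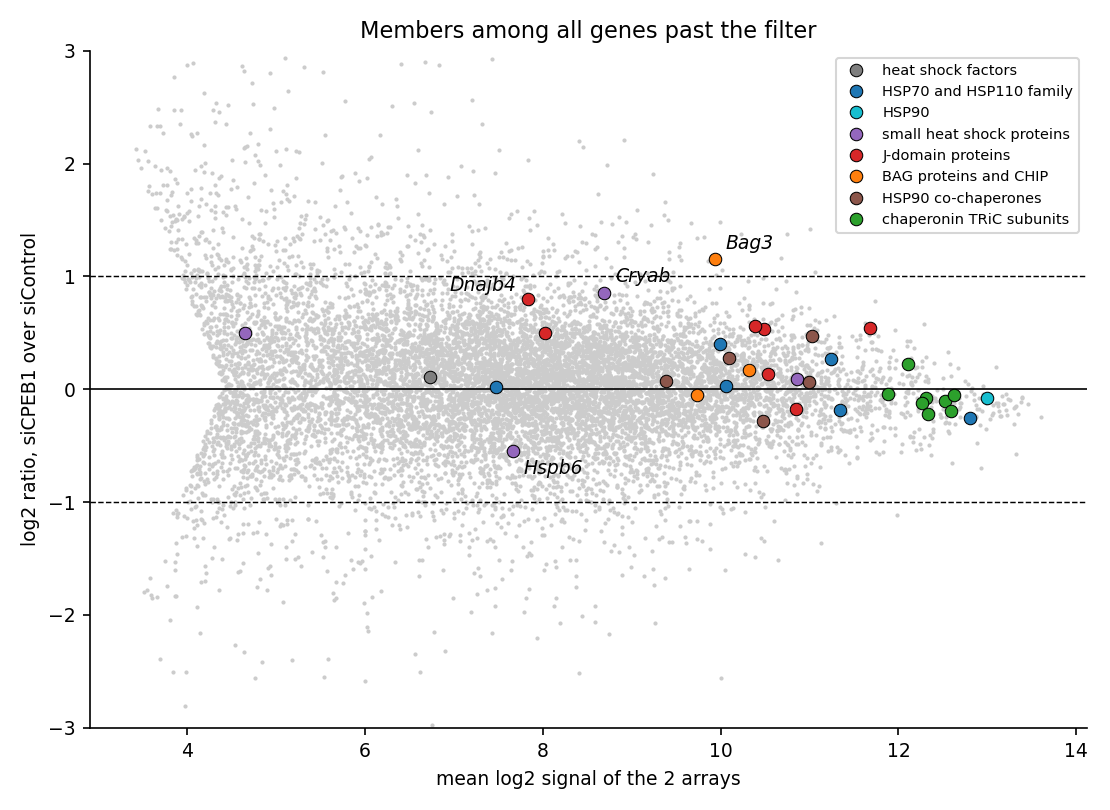
The log2 ratio of siCPEB1 over siControl (y axis) is plotted against the mean log2 signal of the 2 arrays (x axis) for 11554 genes in grey, with the measured members in colour by role and dashed lines at 2-fold, and 11 genes outside the plotted range of 3 are not drawn. The TRiC subunits, Hspa8 and Hsp90aa1 lie at the bright end, where most genes are slightly below 0, and Bag3 lies above the 2-fold line.

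Among the promoter matches printed above, those of Hspa1a and Hspa1b begin at -104 from their starts, and the 2 promoter windows are the same at 296 of 300 positions. That of Dnaja1 begins at -124, that of Dnajb4 at -14 from a start inside the gene, and that of Bag3 at 43, downstream of its start. The ratios of genes with and without a match overlapped. The 14 measured genes with a match had a median log2 ratio of 0.13 (from -0.54 to 1.15), with 8 above 0 and 6 below. The 17 without had a median of 0.08 (from -0.18 to 0.57), with 12 above 0 and 5 below. Both the genes higher by more than 1.5-fold that had a window, Bag3 and Dnajb4, held a match, whereas no window was given for Cryab. The heat-inducible genes Dnajb1 and Hspa4l, with representative log2 ratios of 0.57 and 0.40, had a window without a match. Among TRiC subunits, Cct2, Cct5 and Cct6a held one too, with log2 ratios of -0.11, -0.22 and -0.19.

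Related genes outside the 40 were listed by function for comparison, and some of them were counted in more than 1 list. Of 22 further HSP70 and HSP90 co-chaperones, 14 had a ratio above 0, with a median of 0.08, close to that of the HSP90 co-chaperones among the members. None of the 22 was higher and 1 was lower by more than 1.5-fold, where 13.4% and 10.8% of all genes were. Another 8 heat-inducible genes, which include mitochondrial chaperonins, had a median of 0.00 with 4 above 0 and 4 below, beside 0.52 for the 10 among the members. Prefoldin and other TRiC cofactors had a median of -0.13 over 11 genes and none past 1.5-fold. The clients of TRiC and the tubulin cofactors had a median of -0.11 over 16 genes, with 12 below 0. Of these, only Tuba4a passed 2-fold, with 1011 in siCPEB1 and 493 in siControl (2.05-fold higher).

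Chaperones of other compartments lay lower than those of the cytosol by their medians. The 16 chaperones of the endoplasmic reticulum had a median of -0.20, with 13 below 0, none higher and 2 lower by more than 1.5-fold. The 10 mitochondrial chaperones had a median of -0.19, with 6 below 0 and none past 1.5-fold. The 7 J-domain proteins among the members, at 0.53, and the heat-inducible members, at 0.52, lay on the other side of 0 from both. These J-domain and heat-inducible sets share Dnaja1, Dnajb1 and Dnajb4, so their medians are not separate observations. The 14 other J-domain proteins, at -0.09, the TRiC subunits, at -0.09, and the prefoldin and TRiC cofactors, at -0.13, were below 0 too. The difference between the lists was not tested, since each condition has 1 array.

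**Figure D4:**
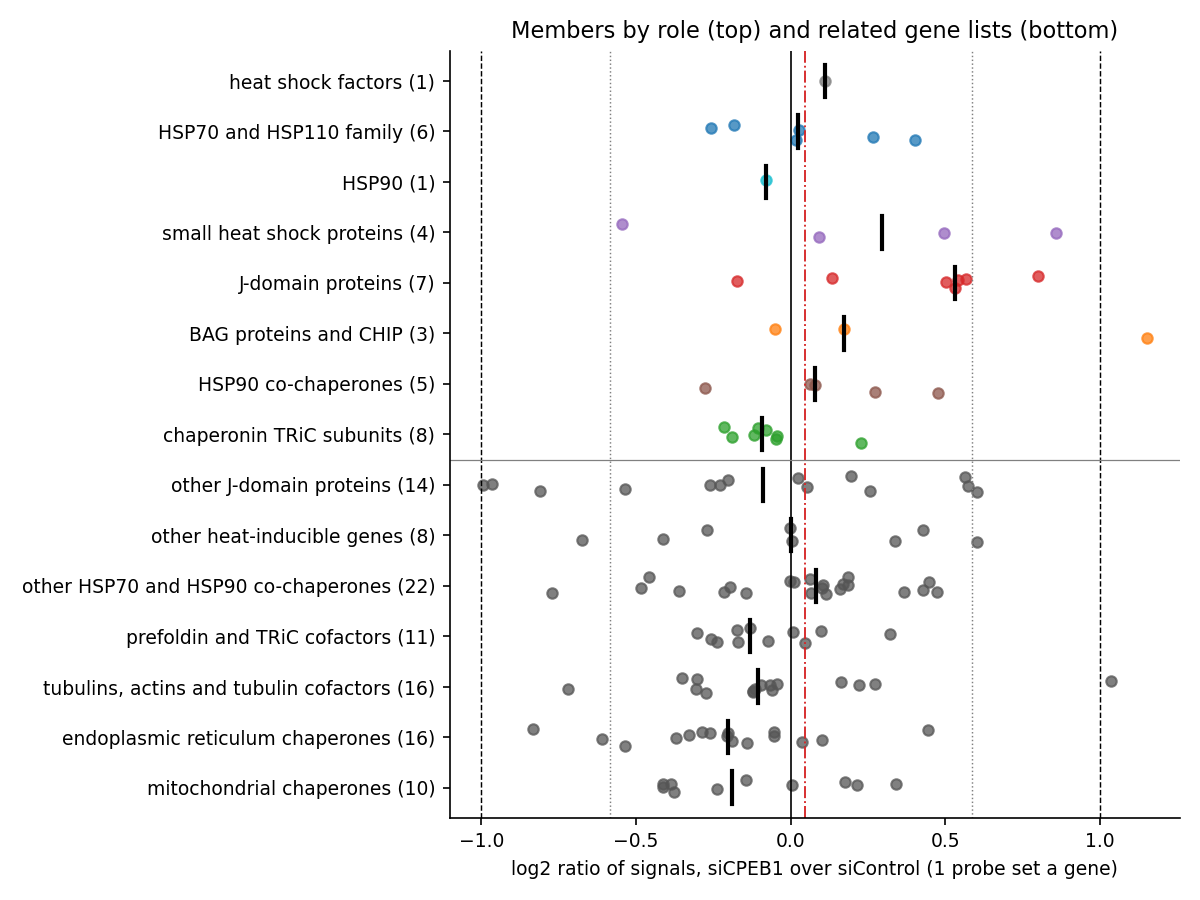
Each point is a gene at its representative probe set, with the log2 ratio of siCPEB1 over siControl on the x axis and its role or list on the y axis (number of genes in brackets), members above the line and related lists below it. Black bars are medians, the red line is the median of all genes at 0.05, and dotted and dashed lines mark 1.5- and 2-fold. The J-domain proteins of the 40 genes, at a median of 0.53, lie to the right of the other J-domain proteins, at -0.09.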

How the data were processed

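The authors computed the deposited values with MAS5 in Affymetrix Expression Console (versions not given in the sources used here), as probe set signals, an intensity on a linear scale after background subtraction and scaling of each array. The scaling target and detection calls were not used here. From these intensities log2 ratios (siCPEB1 over siControl) were computed without further scaling and leaving out 64 control probe sets. Of 45037 probe sets, 34945 had 1 gene symbol in the platform annotation, 932 several and 9160 none, with symbols updated through gene identifiers to RefSeq of GRCm38.p6, and 23655 passed the filter. A gene's representative was a passing probe set with 1 symbol, by preference not marked as cross-hybridizing (_x_at or _s_at), then the brightest. Every member is named, with signals at each probe set where 1 passed 1.5-fold or where the gene is heat-inducible. Related genes are named only past 2-fold, apart from some J-domain proteins. A fold given as at least N sets a signal below its array median at the median. The members, the gene lists and the bounds were chosen with earlier results of these data known. The alternatives were 4 other scalings (median, 75th percentile, quantile, loess at span 0.3), an offset of 16, 2 other filters and 3 other choices of probe set. The calculation was tested on simulated data, which does not bear on the calls. The single array per condition limits the precision. Python 3.11.15, numpy 2.4.6, pandas 2.3.3, statsmodels 0.14.6 and matplotlib 3.10.9 were used.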

Additional observations from a re-analysis of the deposited data

How the results depend on the processing

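Of 245 values of single members under the alternatives, 244 moved by less than the pooled SD of 0.37 between probe sets of 1 gene, and Fkbp4 had -0.81 with the mean of its probe sets. Many of these values could not move by that much, so the count is not a measure of robustness. Scaling by the median or by an upper percentile shifts all members equally, by 0.04 for the median. Adding 16 changes bright signals little. For a member with a single passing probe set, the mean and the brightest probe set give the same value. Bag3, Cryab and Dnajb4 were higher by more than 1.5-fold under 7 of 7 alternatives, with log2 ratios of 1.11 to 1.17 for Bag3, 0.82 to 1.06 for Cryab and 0.75 to 0.88 for Dnajb4. The representative of each was already its brightest passing probe set, so that alternative could not differ. Bag3 has a single probe set, so the mean of probe sets could not differ for it either. Members higher by more than 1.5-fold numbered 5 under quantile normalization and under loess (Dnaja1 and Dnajb1 added), 5 without a filter and 6 with the mean of probe sets. Those higher by more than 2-fold numbered 2 without a filter and 2 with the mean. Without a filter, the added genes were Hspa1a and Hspa1b at 1.5-fold and Hspa1a at 2-fold. Their signals lay below the array medians, where no order is read. With the mean, 1 member was lower by more than 1.5-fold. Members below 0 numbered 9 under quantile normalization, and member probe sets lower by more than 1.5-fold 2 with 16 added and 7 without a filter. The median of the other heat-inducible genes was 0.13 under quantile normalization, and that of prefoldin and TRiC cofactors turned to 0.0057 with the brightest probe sets. The remaining 228 of 240 medians and counts stayed within the spread or within 1.5 times. Some of these were fixed in advance too. Counts of member probe sets do not depend on using the mean or the brightest probe set. Member medians could not differ with the median required on both arrays, which every representative reached.

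The signs of Tcp1, Cct2, Cct4, Cct7, Cct8, Hsp90aa1, Hspa2 and Hspa14 changed under some alternative. The J-domain median was between 0.49 and 0.57 and that of the heat-inducible members between 0.47 and 0.55 under every alternative. No paired analysis was possible because each condition has 1 array. With 1 array per condition, no ratio can be told apart from a difference between any 2 cultures, and signals below the array median have no order here.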
